A study of Mus musculus with 4 samples.

Results

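Among the transcripts most heavily covered by ribosomes in neurons and astrocytes of the mouse brain, a small group had no footprint at all in region a, 1 of the 4 regions into which each transcript was divided. Counts were added over the 4 libraries for each transcript and region. A transcript belonged to the group when its region b sum was 1000 or more and its region a sum was 0. By this rule 382 transcripts were found, among 7382 with 1000 or more region b counts and 23175 with any count. The other 7000 well covered transcripts, which had at least 1 region a count, served for comparison. Both the region a and the region b values entered the rule, so the members were selected on them, and they are given as a description without a test.

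A ribosome footprint is the piece of RNA that a ribosome shields from nuclease. Most footprints of a messenger RNA lie on its coding sequence. Some lie on the leader ahead of the start codon, where ribosomes can translate upstream reading frames, and few lie beyond the stop codon, where ribosomes that read through the stop can be found. Leaders differ between transcripts of 1 gene when these begin at different promoters or are spliced differently, so transcripts with a common coding sequence can carry different leaders. The letters a, b, c and d are not explained in the sources used here, nor is it known which transcripts had a region a in the annotation. A sum of 0 can therefore mean an empty region or no region, and these cannot be told apart. No table at hand pairs the Ensembl transcript IDs with genes, so the members go by ID, with no gene name and no sequence.

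All 4 libraries were made from C57BL/6J mouse brain on postnatal day 21, each from 2 pooled brains. The Snap25::eGFP-RpL10a mice carry a GFP-tagged ribosomal protein under a neuronal driver, and the Aldh1l1::eGFP-RpL10a mice carry it under an astrocyte driver. Tagged ribosomes were captured on anti-GFP beads in the presence of cycloheximide, which holds ribosomes in place, and digested there with RNase I. Each cell type had 2 libraries from separate experiments, so p-values measure the spread between pools. Astrocyte 1 and 2 had totals of 7292950 and 7968406 counts, neuron 1 and 2 totals of 7210269 and 12833187. Neuron 2 was thus the deepest, and the neuron libraries lay over 2-fold apart in CPM (counts scaled to a common library size) for 21 of the 382 transcripts, against 0 for the astrocyte pair. Without gene names the cell type of a library could not be checked against marker genes.

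The group was set apart by a peak at 0 in the counts of region a. Of the 7382 well covered transcripts, 382 had 0 region a counts, 81 had 1, 56 had 2 and 36 had 3, and the numbers then stayed between 27 and 61 for each value up to 30. The median of the other 7000 transcripts was 112 region a counts, or 4.62% of their region b counts, with quartiles of 1.97% and 9.79%. A sum of 0 allows up to 3 counts. That limit corresponds to 0.299% of region b in the least abundant of the 382 transcripts, 0.167% at their median and 0.00436% in the most abundant. Of the 7000 others, 323 had region a below 0.299% of region b, so low levels of region a were not confined to the group.

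**Figure D1:**
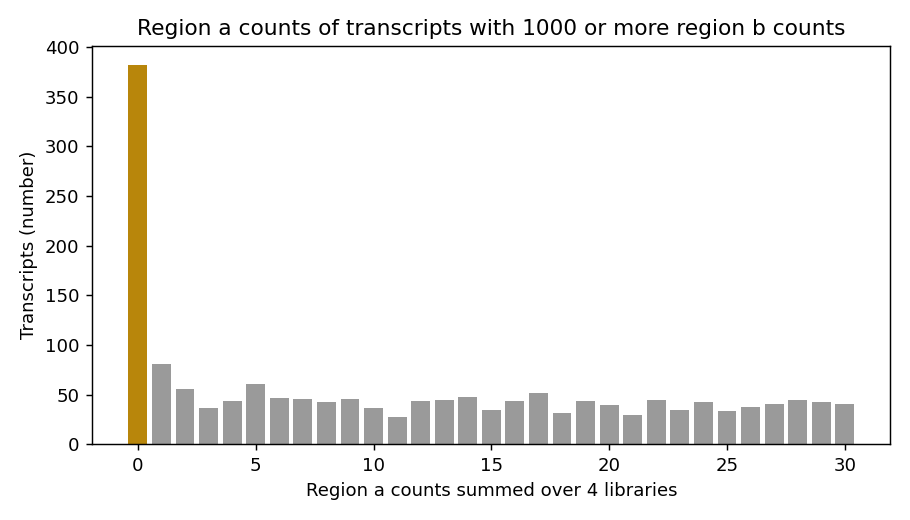
Number of transcripts (vertical axis) by their region a counts summed over 4 libraries (horizontal axis, 0 to 30), for transcripts with 1000 or more region b counts. The bar at 0 holds 382 transcripts, the bar at 1 holds 81, and the bars from 3 to 30 hold 27 to 61 each.

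Transcripts at the borders of the rule looked much like those inside it. ENSMUST00000115789, the least abundant of the group, had 187 and 237 region b counts in astrocyte 1 and 2, against 227 and 351 in neuron 1 and 2, in all 1002. ENSMUST00000022690, just below the limit, had 980 region b counts and also 0 region a counts. At the other border, ENSMUST00000165878 had 97179 region b counts, more than any of the 382, and a single region a count, in neuron 2. ENSMUST00000030518 had 11731 region b counts and its single region a count in astrocyte 1. Over the 81 transcripts with exactly 1 region a count, that count fell in astrocyte 1 for 28, in astrocyte 2 for 18, in neuron 1 for 13 and in neuron 2 for 22.

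The lack of region a counts became rarer with coverage but did not vanish. It was seen in 19.6% of transcripts with 50 to 99 region b counts, 7.91% with 200 to 499, 6.29% with 1000 to 1999, 4.57% with 2000 to 4999 and 2.91% with 5000 to 9999. Among the 403 transcripts with 10000 or more it was 4.22% (17 transcripts, 95% Wilson interval 2.65% to 6.65%). From 1000 to 1999 up to 10000 or more region b counts, the share without region c counts fell from 54.3% to 13.2%, and that without region d counts from 34.1% to 10.2%.

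**Figure D2:**
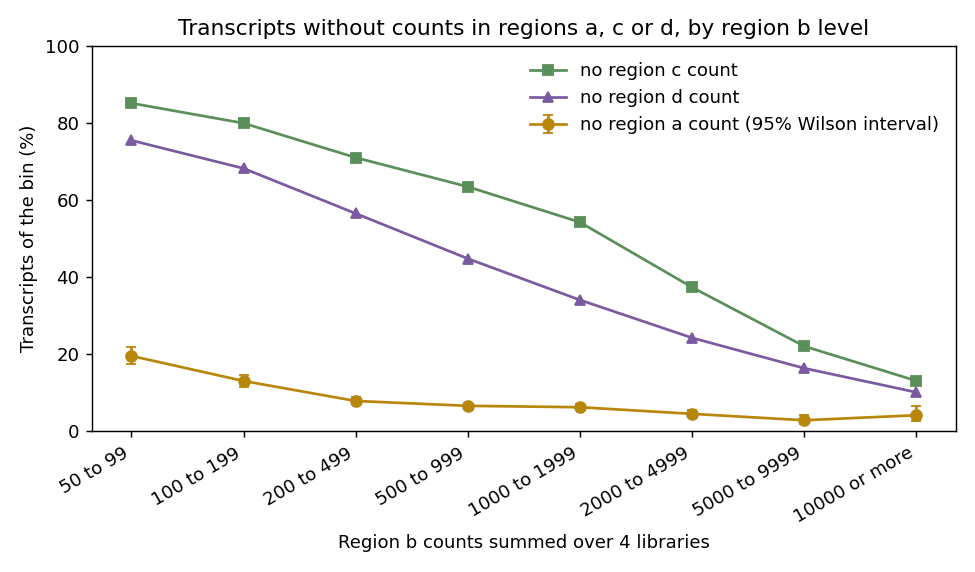
Share of transcripts without any count in region a, c or d (vertical axis, percent) by region b counts summed over 4 libraries (horizontal axis, 8 bins). Region a ends at 4.22% in the highest bin with a 95% Wilson interval as bar, while regions c and d fall to 13.2% and 10.2% from 85.2% and 75.5%.

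Most of the 382 transcripts were of moderate abundance. Their median region b sum was 1792, against 2120 in the other 7000, with 220 below 2000, 42 at 5000 or more and 17 at 10000 or more. In every library each of them had region b counts, the lowest being 70. Their median level was 48.3 and 47.7 CPM in astrocyte 1 and 2 and 54 and 56.7 CPM in neuron 1 and 2. Together they took up 3.57% ± 0.00596 of the library in astrocyte samples and 3.31% ± 0.0671 in neuron samples (SD, n = 2 each).

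The direction of this difference rested on the 2 most abundant transcripts of the group. ENSMUST00000111213 measured 3503 and 3650 CPM in astrocyte 1 and 2 and 945.3 and 573.8 CPM in neuron 1 and 2. ENSMUST00000005220 measured 3435 and 3577 CPM in the astrocyte and 929.9 and 566 CPM in the neuron libraries. Their region b sums, 68809 and 67520, differed by 1.87%, and in each library both had the same few region c and d counts, 6 in all. They may therefore hold largely the same fragments and are not separate findings. Without both, the remaining 380 transcripts held 2.86% ± 0.0264 of the astrocyte and 3.16% ± 0.119 of the neuron counts (SD, n = 2 each), with the neuron libraries higher.

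The next 3 in abundance were more even between the cell types. ENSMUST00000001204 measured 705.1 and 664.8 CPM in astrocyte 1 and 2 and 960.6 and 1055 CPM in neuron 1 and 2. ENSMUST00000117648 measured 469.5 and 462.8 CPM in the astrocyte and 589.4 and 578.4 CPM in the neuron libraries. ENSMUST00000120544 measured 429.5 and 404.3 CPM in the astrocyte and 572.8 and 633.6 CPM in the neuron libraries. For all 3 both neuron libraries lay above both astrocyte libraries, yet none passed the test, with log2 fold changes of 0.44, 0.21 and 0.41 and edgeR adjusted p = 0.102, 0.387 and 0.104. With library totals in place of the TMM factors, which correct for differences in composition between libraries, the first and the third passed (edgeR adjusted p = 0.0484 and 0.0483). With any 1 library left out, the log2 fold changes were 0.395 to 0.485, 0.173 to 0.245 and 0.365 to 0.466 in the same order. Such fits leave 1 library in a cell type, so only the sizes of the changes are given for them.

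The comparison of cell types asked which of the 382 transcripts carried more footprints in neurons or in astrocytes. The rule did not use the difference between cell types, but it used region b sums, which make up 99.5% of the counts tested in the group and in which the deeper neuron 2 weighs most. Of the 382 transcripts, all of which were tested, 33 were higher in neuron samples, or 8.64%, and 34 were higher in astrocyte samples, or 8.9% (edgeR quasi-likelihood test, adjusted over all 18819 transcripts tested). Over all tested transcripts the corresponding shares were 4.24% and 12.9%, and over the other 7000 well covered transcripts 7.7% and 12.2%. The share higher in neuron samples was thus near that of the other well covered transcripts, and the share higher in astrocyte samples was somewhat below it. With 1 transcript kept per set of equal region b counts, 27 and 33 of 353 were called, against 637 and 2006 of all 15725. Transcripts with nearly equal counts remain in both fits, so the calls are not all separate findings. With the limits set in the neuron libraries alone, at 500 region b counts, the group held 517 transcripts, of which 50 were called higher in neuron and 32 in astrocyte samples. With the same limits in the astrocyte libraries alone it held 390, with 31 and 44 called. The balance of the calls thus moved with the libraries that chose the group. Such limits favour transcripts with high counts in the libraries they are set in. Calls of transcripts with region a counts were not counted under them, so whether the shift is particular to the group was not tested. The counts come from captured ribosomes and are scaled within each library. A higher level is thus a larger share of the footprints of a library, not an amount per cell. What lies behind a larger share was not tested.

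The sizes of the changes were close to those of other well covered transcripts. The median log2 fold change, neuron minus astrocyte, was 0.148 in the 382 transcripts, 0.134 in the other 7000 and 0.028 in all tested. Changes of at least 2-fold were found in 8.9% of the 382 and 8.79% of the other 7000. Those called higher in astrocyte samples had the larger changes, 1.43-fold to 9.36-fold, with 22 of 34 at 2-fold or more and 15 at 4-fold or more. Those called higher in neuron samples changed 1.39-fold to 5.61-fold, with 10 of 33 at 2-fold or more and 1 at 4-fold or more. The sizes of called changes outside the group were not counted. Called or not, log2 fold changes ran from -3.23 to 2.49 in the 382 and from -3.61 to 2.56 in the other 7000. In all tested transcripts they ran from -3.85 to 6.79, with the larger extreme toward neurons. In CPM the groups did not overlap for 266 of the 382 transcripts, or 69.6%, which was above the 65.8% of all tested transcripts and below the 73.8% of the other 7000.

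How many were called varied with the scaling. Scaled by library totals only, 60 transcripts were higher in neuron samples and 29 lower. This puts 67.4% of the calls toward neurons against 49.3% with TMM factors. Over all tested transcripts that share was 41.4% against 24.8%, so the shift was not particular to the group. With any 1 library left out, the median log2 fold change of the 382 transcripts was 0.117 to 0.169. Over all tested transcripts it was -0.00617 to 0.0299. These fits take the spread from the complete pair and apply it to the lone library, so their calls are not given.

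**Figure D3:**
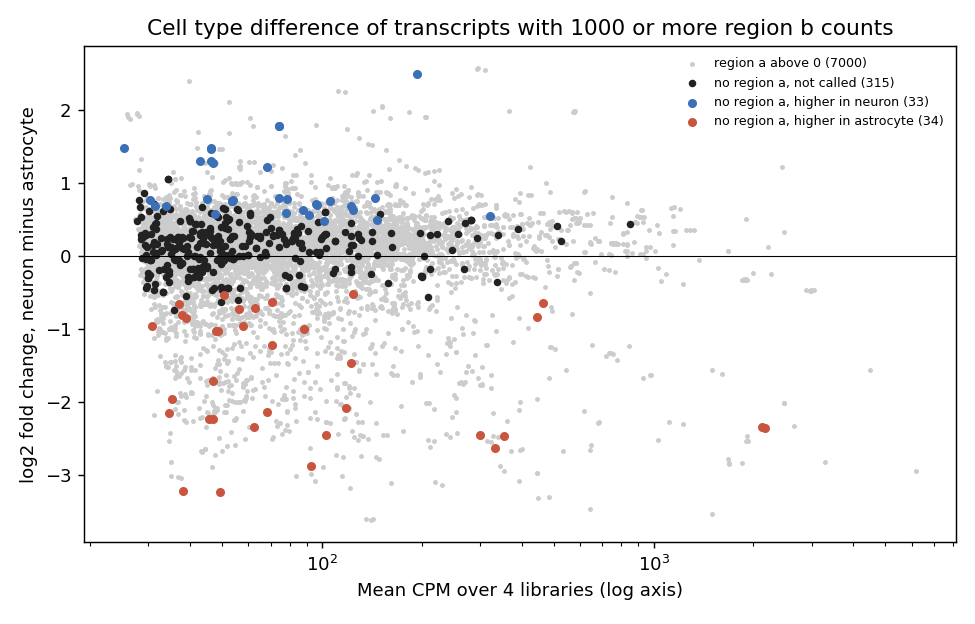
Log2 fold change, neuron minus astrocyte (vertical axis), against mean CPM over 4 libraries (horizontal log axis), 1 point per transcript with 1000 or more region b counts. The 382 transcripts without region a counts (33 higher in neuron, 34 higher in astrocyte samples, 315 not called) lie within the cloud of the other 7000 in grey.

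Without gene names, the changes are shown by the 2 largest in each direction. ENSMUST00000041099 measured 52.7 and 56 CPM in astrocyte 1 and 2 and 125.8 and 538.8 CPM in neuron 1 and 2. Both neuron libraries lay above both astrocyte libraries but were themselves over 4-fold apart. Its log2 fold change was 2.49 (SE 0.55, edgeR adjusted p = 0.0186), and it was 3.17 without neuron 1 and 1.12 without neuron 2. ENSMUST00000114401 measured 34.6 and 28.6 CPM in the astrocyte and 55.3 and 178.7 CPM in the neuron libraries, again with the higher value in neuron 2. Its log2 fold change was 1.77 (SE 0.451, edgeR adjusted p = 0.032), and DESeq2 did not call it (adjusted p = 0.117). Without neuron 1 its log2 fold change was 2.37, and without neuron 2 it was 0.72. All of its 3172 counts lay in region b, and a partner transcript had the same counts in every library.

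In the other direction, the 2 largest changes had nearly the same profile. ENSMUST00000047761 measured 87.3 and 89.4 CPM in astrocyte 1 and 2 and 13.5 and 7.56 CPM in neuron 1 and 2. ENSMUST00000071546 measured 67.3 and 68.3 CPM in the astrocyte and 10.8 and 5.61 CPM in the neuron libraries. Their astrocyte libraries agreed closely, and every neuron library was lower. The log2 fold changes were -3.23 (SE 0.266, edgeR adjusted p = 0.000396) and -3.21 (SE 0.288, edgeR adjusted p = 0.000427). Both had 14 region c and 6 region d counts, so they may share fragments. The most abundant transcript of the group, ENSMUST00000111213, was 5.1-fold higher in astrocyte samples (log2 fold change -2.35, SE 0.271, edgeR adjusted p = 0.00106).

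**Figure D4:**
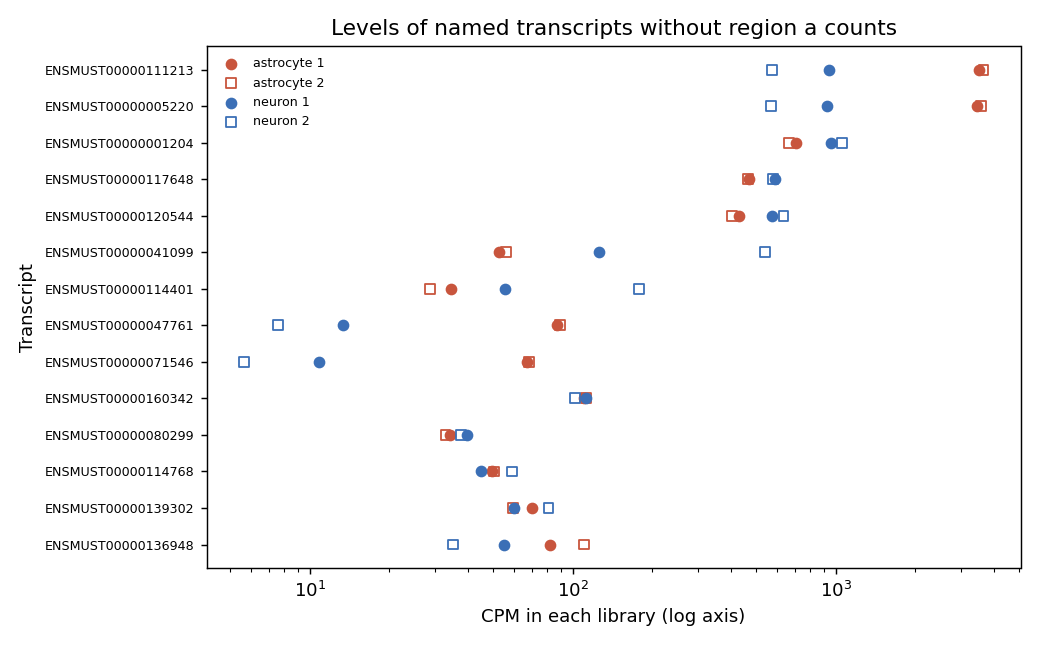
Level in each library (horizontal log axis, CPM) of named transcripts without region a counts (vertical axis), with astrocyte libraries in red and neuron libraries in blue. The most abundant, ENSMUST00000111213, lies at 3503 and 3650 CPM in the astrocyte libraries and at 945.3 and 573.8 CPM in the neuron libraries.

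Regions c and d, which the rule did not use, were sparse, and somewhat more often empty in the 382 transcripts than in the other well covered ones, which had more region b counts. Region c held no count in 176 of them, or 46.1%, against 42.1% of the other 7000. Region d held none in 117, or 30.6%, against 27.1%. All counts lay in region b in 74, or 19.4% (95% Wilson interval 15.7% to 23.6%), against 15.3% of the others. The interval treats transcripts as independent, though some share their counts. With 1 transcript kept of those with equal region b counts in every library, the share in the group was 18.2%. The median level was 0.0369% of region b for region c and 0.0897% for region d, against 0.039% and 0.0944% in the others.

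The 382 transcripts had fewer region b counts than the others, so empty regions were also compared at like abundance with the transcripts that had region a counts. At 1000 to 1999 region b counts, 56.4% of the group had no region c count, 37.7% no region d count and 25.9% neither, against 54.1%, 33.9% and 22%. At 2000 to 4999 the corresponding values were 36.7%, 23.3% and 10.8%, against 37.4%, 24.3% and 11.7%. The 25 transcripts at 5000 to 9999 gave 28%, 16% and 16%, against 21.9%, 16.4% and 5.28%. Of the 17 at 10000 or more, 1 had no region c count and 2 no region d count, or 5.88% and 11.8%, against 13.5% and 10.1%, and 0 had neither, which allows a share of up to 17.6%, against 3.63%. The direction of the difference thus changed from bin to bin, and the upper 2 bins hold few transcripts of the group.

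The transcripts with counts in region b only included abundant ones. ENSMUST00000059034 had 3637 and 4007 region b counts in astrocyte 1 and 2, against 874 and 995 in neuron 1 and 2, and none elsewhere. The 3 counts that a count of 0 allows are 0.0315% of its 9513 region b counts. It was one of 5 transcripts of this kind called higher in astrocyte samples, beside 5 called higher in neuron samples, each 6.76% of the 74, where all tested transcripts gave 12.9% and 4.24%. ENSMUST00000120289 had 1730 and 1777 region b counts in the astrocyte and 1829 and 3503 in the neuron libraries, and did not pass the test (log2 fold change 0.08, edgeR adjusted p = 0.751). Both were chosen after their values were seen, as the most abundant with empty regions a, c and d.

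A few of the 382 transcripts had many region c or d counts. Region c exceeded 1% of region b in 16 and region d in 19, and both did so in 7. The same limits were passed by 3.3% and 5.14% of the other 7000, against 4.19% and 4.97% here. Region d counts outnumbered region c counts in 186 transcripts, or 48.7%, against 53.5% of the other 7000. The reverse held in 105, or 27.5%, against 26.4%. In all 4 libraries region c had counts in 35 transcripts, or 9.16%, against 11.3% of the other 7000, and region d in 51, or 13.4%, against 19.8%.

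ENSMUST00000160342 stood far above the rest. Region b had 450 and 506 counts in the astrocyte and 443 and 706 in the neuron libraries. Region d had 273, 278, 251 and 446 counts in the same order, which is 60.7%, 54.9%, 56.7% and 63.2% of region b. Region c had 86, 114, 116 and 155 counts, or 19.1%, 22.5%, 26.2% and 22%. Every library thus had the same order, b above d above c, with region a at 0 in all. Neither ratio passed a test between the cell types (edgeR adjusted p = 0.625 for region c and 0.908 for region d). Its level was also alike, at 110.9 and 112.7 CPM in the astrocyte and 112.3 and 101.8 CPM in the neuron libraries.

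This transcript alone held 22.6% of the 2088 region c counts and 30% of the 4166 region d counts of the group. With it, region d made up 0.329% ± 0.00935 of region b in astrocyte and 0.366% ± 0.0309 in neuron samples. Without it these shares were 0.228% ± 0.00445 and 0.261% ± 0.0287 (SD, n = 2 each). The region c shares were 0.171% ± 0.00338 in astrocyte and 0.184% ± 0.0429 in neuron samples with it (SD, n = 2 each), and the libraries of both cell types overlapped. Neuron 1 was the highest library in region c and neuron 2 the lowest, at 0.214% and 0.153%.

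The next transcripts in order showed regions c and d either apart or together. ENSMUST00000139302 had 64 and 55 region d counts in astrocyte 1 and 2, against 49 and 92 in neuron 1 and 2, or 14.4%, 13.2%, 12.8% and 9.73% of region b, with 1 region c count in all. ENSMUST00000136948 had 55, 64, 27 and 35 region d counts in the same order, or 10.1%, 7.83%, 7.3% and 8.45% of region b, and no region c count. Its total was lower in neuron samples (log2 fold change -1.22, edgeR adjusted p = 0.0135), while its region d share did not pass the test (adjusted p = 0.843). ENSMUST00000114768 was the reverse case, with 27, 19, 17 and 20 region c counts, 8.08%, 4.99%, 5.57% and 2.73% of region b, and 1 region d count. ENSMUST00000080299 had 65 counts in region c and 51 in region d, 5.58% and 4.38% of region b. High levels of region c and of region d thus occurred together in some transcripts and apart in others.

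Changes of these ratios between cell types were seldom testable. The region c to region b ratio could be tested in 8 of the 382 transcripts and 0 were called, as over all 290 tested transcripts, of which 0% were called. At an unadjusted edgeR p under 0.05 there was 1 of the 8, or 12.5%, against 13.8% of all 290. DESeq2 also called 0 of the group, with 1 at that limit. The region d to region b ratio could be tested in 20 and 0 were called, where 0.184% of all 544 tested transcripts were. Unadjusted p lay under 0.05 for 3 of the 20 with edgeR, or 15%, against 14.5% of all 544. With DESeq2, which called 0 of the group as well, it did so for 2. The lowest adjusted p for region d, 0.252, was that of ENSMUST00000040962, named for that value. Its region d counts were 11 and 18 in the astrocyte and 27 and 33 in the neuron libraries, 4.48% and 10.5% of region b. The transcripts tested passed a filter on region c or d counts, so they are the few with high levels and do not stand for all 382.

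Transcripts of the group could share their region b counts with others that did have region a. Of the 382 transcripts, 332 had region b counts of their own and 50 shared all 4 library counts with at least 1 other transcript. These 50 were 13.1% of the group, against 22.7% of all well covered transcripts. For 35 of these 50, in 17 sets, no transcript of the set had a region a count, and in 16 of the 17 sets the region c and d counts were equal too. The other 15, in 14 sets, shared their region b counts with 17 transcripts that had 1 to 1195 region a counts, or 0.0876% to 22.4% of region b, with a median of 2.4%. Transcripts of a set may count the same fragments and are not replicates. Of all 732 sets of well covered transcripts, 701 had region a counts in every transcript.

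ENSMUST00000097561 and ENSMUST00000027677 form the clearest such pair. In region b each had 4097 and 4505 counts in the astrocyte and 815 and 1106 in the neuron libraries, with equal region c and d counts, 40 and 27 in all. In region a the second had 451, 576, 68 and 100 counts in that order, or 11%, 12.8%, 8.34% and 9.04% of region b. The first had 0 in every library, with a limit of 0.0285% of region b over all libraries. Both were higher in astrocyte samples, by log2 fold changes of -2.63 and -2.67 (edgeR adjusted p = 0.000396 for each).

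ENSMUST00000180140 and ENSMUST00000024697 had the highest region a share of these sets. They shared 2022 region b, 31 region c and 6 region d counts. The second had 86, 104, 94 and 168 region a counts in astrocyte 1 and 2 and neuron 1 and 2, 24.1%, 21.6%, 22.5% and 21.9% of region b, a narrow range over the libraries. ENSMUST00000170219 and ENSMUST00000105369 shared 4602 region b counts and likewise their region c and d counts, 2 and 14. Region a of the latter held 103, 103, 140 and 275 counts, 12%, 12%, 12.9% and 15.3% of region b. In each pair the region a counts of 1 partner alone separated transcripts that were otherwise equal.

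Some sets held more than 1 level of region a. ENSMUST00000151042 shared 2852 region b counts with ENSMUST00000050077 and ENSMUST00000072954, which had 478 and 485 region a counts. In the first of these partners they were 50, 87, 117 and 224 by library, which is 10.9% and 19.6% of region b for the astrocyte and 17.4% and 17.5% for the neuron libraries, so the astrocyte libraries lay to either side. ENSMUST00000111330 shared 1874 region b counts with ENSMUST00000090614 and ENSMUST00000111329, which had 49 and 142 region a counts, 2.61% and 7.58% of region b. Equal region b counts thus went with 3 levels of region a, 0 among them.

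The most abundant set was ENSMUST00000115731 with ENSMUST00000023462 and ENSMUST00000069107, at 13997 region b counts each. Both partners had the same region a counts, 82, 58, 86 and 110 in astrocyte 1 and 2 and neuron 1 and 2, or 2.4% of region b. Their region c and d counts differed, at 3 and 0 in the transcript without region a against 17 and 5 and 14 and 21 in the partners. ENSMUST00000109625 and ENSMUST00000113278 had partners with few region a counts, 14 of 4471 and 27 of 3456 region b counts. In 3 sets the partner had only 1 or 2 region a counts, which the 3 counts that a sum of 0 allows do not set apart from 0.

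**Figure D5:**
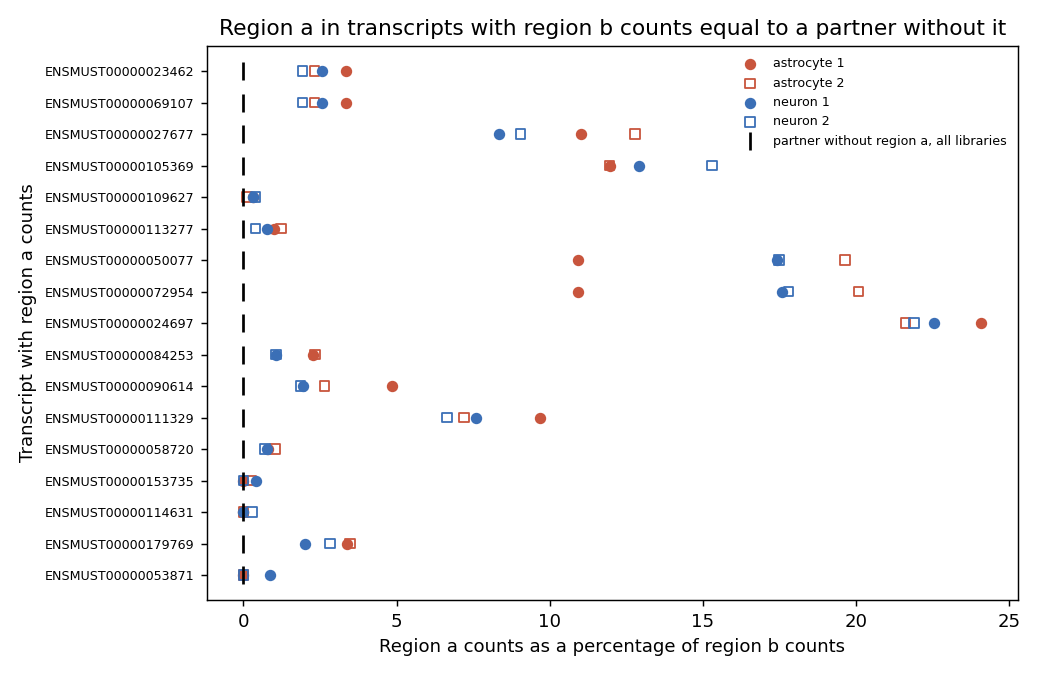
Region a counts as a percentage of region b counts in each library (horizontal axis) for the 17 transcripts whose region b counts equal those of a transcript without region a counts (vertical axis). Astrocyte libraries are red, neuron libraries blue, black marks at 0 show the partner without region a, and ENSMUST00000024697 lies highest at 21.6% to 24.1%.

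Nearly equal region b counts were also examined, a comparison extended to the other 7000 transcripts after seeing the data. Region b counts were taken as nearly equal when each library differed by at most 2% or 2 counts and the sums by at most 1%. A nearly equal transcript with region a counts was found for 75 of the 382, or 19.6%, against 37.2% of the other 7000. A nearly equal transcript without region a counts was found for 81, or 21.2%, against 1.26% of the other 7000. The lists were split by region a and differ in size, 382 against 7000, and a pair across them counts in both. The shares therefore do not compare like with like, and no conclusion is drawn from them. Near equality can also arise between unrelated transcripts, and its part in these shares was not tested.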

How the data were processed

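The files deposited by the authors hold raw counts of footprints, as whole numbers, 1 line per transcript region. The submitters' processing notes name STAR 2.3.1z8 and Bowtie2 2.2.2, further Trimmomatic 0.32, FastQC 0.11.2, edgeR and bedtools, without role or order. Build, annotation, strand use and the handling of multiply fitting fragments: not given in the sources used here. An absent line was read as 0.

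Regions were summed per transcript and compared by the quasi-likelihood test of edgeR 4.0.16 under R 4.3.3 (TMM factors, filterByExpr with a minimum count of 10, cell type as only term, Benjamini-Hochberg threshold 0.05 over all transcripts tested). SE is the absolute log2 fold change over the root of the F statistic. Region c or d was compared with region b in a model with terms for library, region and their interaction with cell type, with equal library totals as offset. DESeq2 1.42.0 was an alternative. Both tests were also run on simulated counts with known changes. Those counts were drawn separately for each transcript with a fixed spread, so they do not reproduce shared fragments or the uneven neuron libraries. CPM uses library totals. Wilson intervals and the limit of 3 counts cover counting error only.

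The group and the lists were chosen with earlier results of these data known. Named were the 5 most abundant, the 2 largest called changes per direction without overlap, the 3 highest in region c and in region d, and sets of equal region b counts by abundance and by region a. Tests of gene lists were not run for lack of gene names.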

Additional observations from a re-analysis of the deposited data

How the results depend on the processing

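In 9 of 16 alternatives the 67 calls between cell types moved by no more than 1.5 times. For calls higher in astrocyte samples this held in 11, and for calls higher in neuron samples in 9. No called transcript changed direction in the 11 other fits, which is largely set by calling them in the same libraries. With library totals alone, calls higher in neuron samples numbered 60 in place of 33, and 1506 in place of 797 over all tested transcripts. With a region b limit of 500 the group held 626 transcripts and 104 calls, 57 of them higher in astrocyte samples, and with a limit of 2000 it held 162 and 40 calls, 18 of them higher in astrocyte samples. With up to 3 region a counts allowed, 555 transcripts gave 104 calls, 61 higher in neuron samples. With the limits set at 500 region b counts in the neuron libraries alone, 50 were higher in neuron and 32 in astrocyte samples, and in the astrocyte libraries alone 31 and 44. Calls of other transcripts under these changed limits were not counted. The numbers therefore show only how the calls move with the limits, not whether the group differs from other transcripts. Leaving out 1 library gave 27 to 219 calls, of which 9 to 134 were higher in neuron and 18 to 85 in astrocyte samples. The cause was not tested beyond the construction of these settings, which change the group or the number of libraries. The group itself held 236 transcripts without neuron 2 and 318 to 337 without another library, a rule on 3 libraries that was chosen after seeing the data, as were the shares without the most abundant pair and without ENSMUST00000160342. The region c and d ratios gave 0 calls in all 8 alternatives each. The share with neither region c nor d counts was 24.1% with a limit of 500, 10.5% with 2000 and 23% to 25.4% with 1 library left out. Transcripts sharing region b counts with one that had region a numbered 40 with a limit of 500, 7 with 2000, 75 for nearly equal counts and 15 to 18 with 1 library left out. Replicate numbers occur in both cell types, but the labels do not tie same numbers together, and same-numbered deviations correlated at r = -0.0836 over 18819 transcripts. The replicate block gave 67 calls, 59 of them the same transcripts. Depth limits regions c and d, where 189 of the 382 transcripts had at most 3 counts in all.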
